A study of Mus musculus with 12 samples.

Results

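Messenger RNA of 9 complement genes was followed across the 12 bulk RNA-seq libraries of an orthotopic mouse oral tumour experiment. The genes were C2, C3, C4b, Cfb and Cfp, which encode components of the cascade, C3ar1 and C5ar1, which encode receptors for its released fragments, and Cd55 and Cd59a, which encode inhibitors held on the cell surface. Each was found by its symbol and matched 1 of the 55401 gene rows of the expression table. Mouse oral cancer cells of the Q1-2 line, a luciferase-expressing derivative of MTC-Q1, which the growth protocol names, had been injected into the mouth of C57BL/6 mice 6 to 8 weeks old, and treatment began when tumours reached 100 mm3. Each group had 3 libraries. Ctrl-IgG mice received an isotype control, labelled IgG1-Fc, at 30 mg/kg. The aCSF1R mice received an antibody against the CSF1 receptor at 30 mg/kg, and IL-10-Fc mice interleukin-10 joined to an antibody Fc part at 20 mg/kg. BF10 mice received 36 mg/kg of a single protein in which human IL-10 is fused to the heavy chain of the CSF1 receptor antibody. The number of doses is given as 4 in one place and 6 in another, and all groups carried the same cell line, so no library comes from a tumour-free mouse. The labels do not say whether the 3 libraries of a group came from separate animals, so the p-values measure only the spread between these libraries, which may be technical.

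Complement is a set of plasma and cell-surface proteins that mark targets, recruit leukocytes and lyse membranes. C4 and C2 form the C3-cleaving enzyme of the classical and lectin routes, while factor B, encoded by Cfb, forms that of the alternative route together with C3b, and properdin, encoded by Cfp, holds this second enzyme together. The liver makes most circulating complement, but fibroblasts, epithelial cells and macrophages also produce components locally, and properdin comes mainly from leukocytes. The CSF1 receptor is required by most tissue macrophages, and IL-10 is a cytokine that acts on macrophages and on T cells.

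C2, Cfb and C4b lie together in the class III region of the mouse major histocompatibility complex on the minus strand of chromosome 17 (GRCm38). C2 spans positions 34862604 to 34898265 and ends 85 bases from Cfb at 34856374 to 34862518, while C4b spans 34728380 to 34743882. C4a, the tandem copy of C4b, lies between them at 34809092 to 34823464, 65209 bases from C4b, and 23.5% of the 75-base windows of the C4b transcripts also occur in C4a, against 7.55% of Cd55 windows in Cd55b and 1.73% of Cd59a windows in Cd59b. Reads from such windows could have been split between copies by the counting. C3 lies elsewhere on chromosome 17 (57203970 to 57228136), Cfp on X (20925454 to 20931555), C3ar1 on 6 (122847138 to 122856161), C5ar1 on 7 (16246743 to 16259540) and Cd55 on 1 (130439027 to 130462744), all on the minus strand, and Cd59a lies on the plus strand of chromosome 2 (104095801 to 104115354). All 9 are annotated as protein-coding.

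Promoter windows of 250 bases before and 50 after the annotated start were present in the RefSeq-derived table (GRCm38.p6) for 6 of the 9 genes, and 3 are shown because Cfp and C3ar1 had the lowest levels in aCSF1R tumours and C3 the highest single values after Cfb. They are chrX:20931506-20931805, chr6:122856108-122856407 and chr17:57228087-57228386, all minus strand, with the motif matches in capitals.
Cfp: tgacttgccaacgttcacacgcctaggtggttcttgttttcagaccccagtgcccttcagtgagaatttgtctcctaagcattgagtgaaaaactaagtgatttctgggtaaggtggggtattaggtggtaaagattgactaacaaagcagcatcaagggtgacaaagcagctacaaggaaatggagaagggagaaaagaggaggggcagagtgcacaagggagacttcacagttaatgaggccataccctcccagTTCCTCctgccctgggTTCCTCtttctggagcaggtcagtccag
C3ar1: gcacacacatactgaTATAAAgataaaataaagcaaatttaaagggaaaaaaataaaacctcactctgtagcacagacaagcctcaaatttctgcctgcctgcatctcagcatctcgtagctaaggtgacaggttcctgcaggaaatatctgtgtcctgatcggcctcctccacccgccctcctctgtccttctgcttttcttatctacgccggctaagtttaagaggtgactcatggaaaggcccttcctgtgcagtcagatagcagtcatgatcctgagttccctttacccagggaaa
C3: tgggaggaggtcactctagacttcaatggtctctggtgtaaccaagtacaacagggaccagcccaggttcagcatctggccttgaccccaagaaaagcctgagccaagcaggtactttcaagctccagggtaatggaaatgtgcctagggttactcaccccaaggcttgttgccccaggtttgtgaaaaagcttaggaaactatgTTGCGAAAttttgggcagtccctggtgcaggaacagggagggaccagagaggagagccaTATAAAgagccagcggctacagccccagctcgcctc
The capitals in Cfp are 2 matches on the opposite strand to GAGGAA, the core bound by the myeloid factor PU.1, starting 6 and 22 bases after the annotated start. Of all 32851 promoter windows, 28.3% hold this motif on either strand. In C3ar1 they are a TATAAA match starting 235 bases before the start. In C3 they are TTGCNNAA, a motif bound by C/EBP factors, 45 bases before the start, and TATAAA 14 bases after it, motifs held by 10.8% and 8.32% of windows. No STAT-type match (TTCNNNGAA, 8.3% of windows) and no match to the NF-kB consensus (8.46%) occurred in any of the 6 windows, and an interferon response element (TTTCNNTTTC, 3.44%) occurred once, in Cd59a, which also had the other GAGGAA match. Both strands were searched for each motif except TATAAA, searched on the strand of the gene, and the matches describe letters only.

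The libraries differed in ways that bear on every comparison. In the 6 libraries of Ctrl-IgG and aCSF1R tumours Xist did not exceed 0.04 FPKM, whereas it was 17.09 to 30.68 in the 6 of IL-10-Fc and BF10 tumours. The Y-linked Eif2s3y was 4.23 to 11.33 in the former and 0 to 0.05 in the latter, other than BF10 replicate 3 at 3.29. H2-Ea, a class II gene that C57BL/6 mice do not transcribe, was at most 0.27 in the former and at least 552.78 in the latter, against their strain label, and it lies 383734 bases from C4b. The simple epithelial keratin genes Krt8 and Krt18 were at most 0.28 against at least 168.88. Differences between a group on one side and a group on the other therefore cannot be told apart from a difference in the mice, the tumour cells or the tissue taken, and only aCSF1R against Ctrl-IgG and BF10 against IL-10-Fc compare libraries of one side. In addition, 4 libraries (replicates 1 and 2 of IL-10-Fc, replicate 2 of Ctrl-IgG and replicate 1 of BF10) had 6.57% to 9.04% of their FPKM sum in mitochondrially encoded genes and sums of 819001 to 976950, against 2.99% to 3.61% and 637596 to 701275 in the other 8. Read depth is unknown, because the values are already scaled to it.

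All 9 genes were measurable. Mean FPKM (fragments scaled to transcript length and to mapped fragments) over the 12 libraries was 64.2 for Cfb, 40.5 for Cfp, 38.7 for C3 and 25.7 for C4b, levels above those of 89.0%, 82.1%, 81.3% and 73.2% of the 15813 genes tested. C3ar1 (8.70), C5ar1 (6.93), Cd55 (6.42) and C2 (5.93) had lower means, and Cd59a (1.38) had the lowest. The ranges of these first 4 over the libraries overlapped one another and those of C3 and C4b, so the order holds for the means only. The ranges of Cfb, Cfp, C3 and C4b likewise overlapped. The span from the lowest to the highest library was 25.9-fold for C4b, 16.7-fold for Cd59a and 14.8-fold for C3, and 3.5-fold for Cfb. Relative abundances therefore varied least for the most abundant member.

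**Figure D1:**
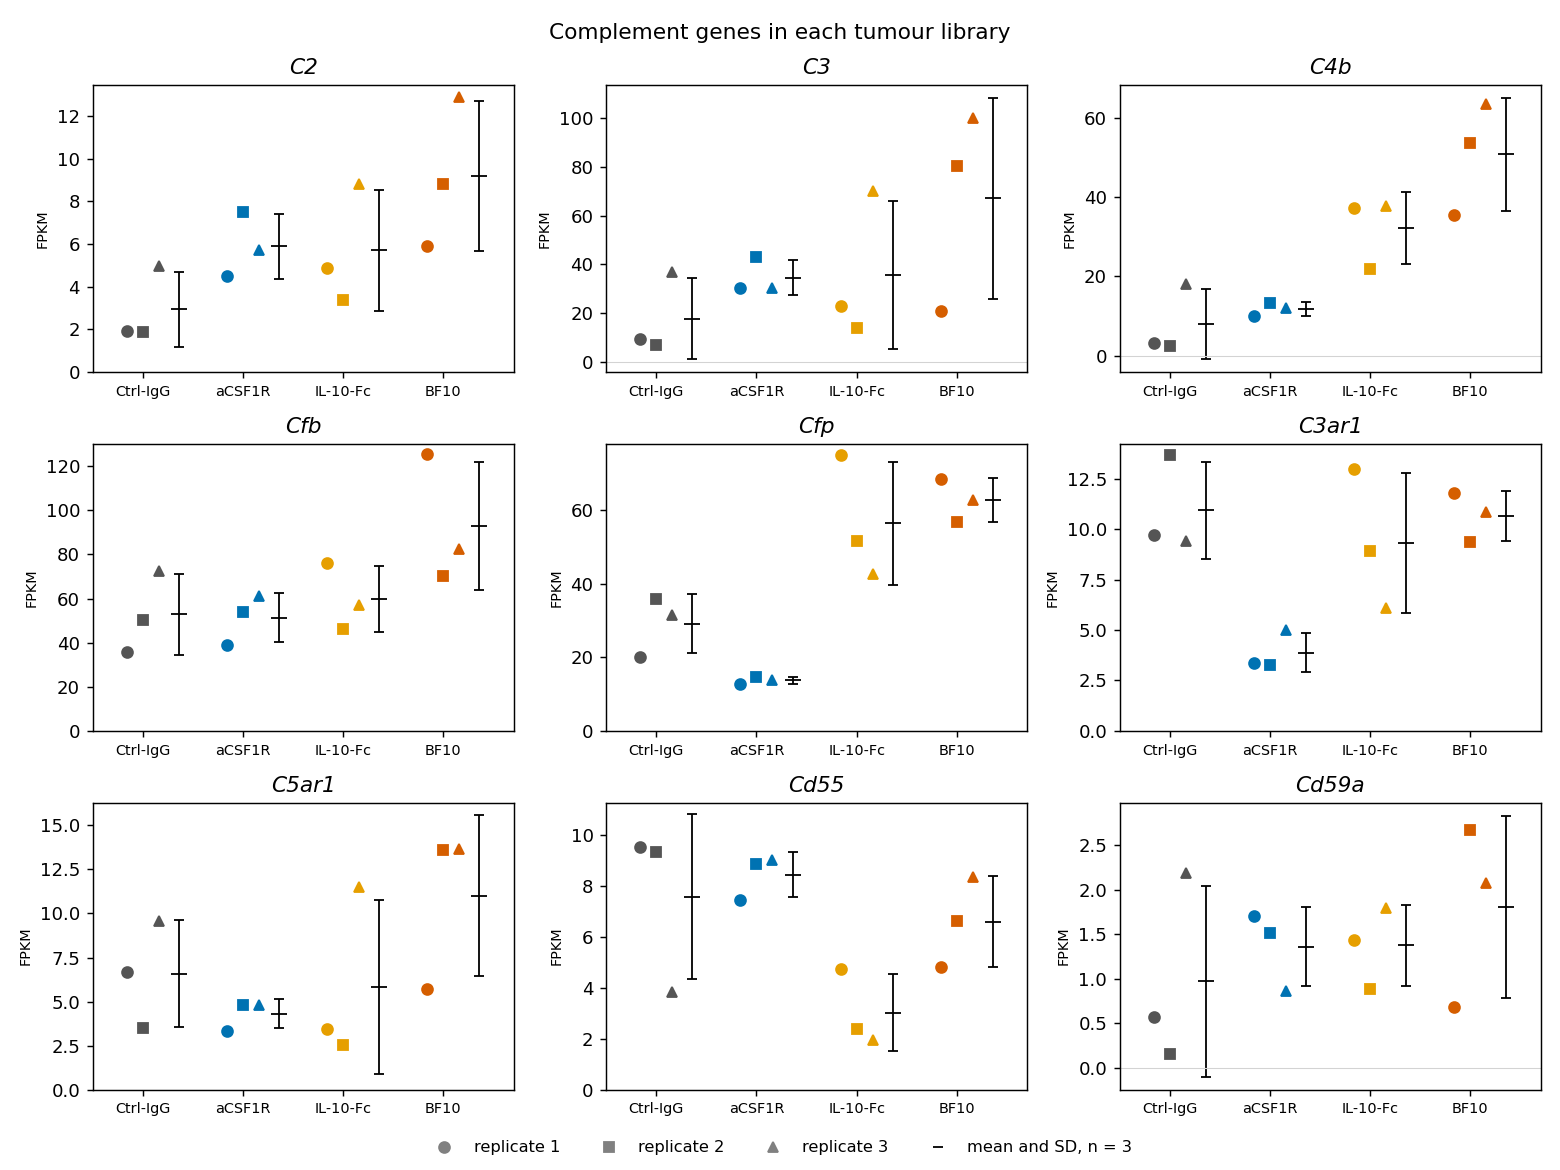
FPKM of the 9 genes (1 panel each, linear axis) in every library, by treatment group, with the group mean and SD of 3 libraries in black. C4b and Cfp were higher in each of the 6 libraries of IL-10-Fc and BF10 than in any of the 6 others, while C3ar1 was at or under 4.98 FPKM in the 3 aCSF1R libraries and at least 6.08 elsewhere.

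Differences were tested on log2(FPKM + 1) with limma over all 15813 genes, and a gene was called at a Benjamini-Hochberg adjusted p under 0.05 and at least 1.5-fold. The scale understates changes of low genes such as Cd59a. BF10 against Ctrl-IgG called 3 of the 9 (C4b, Cfp and C2), all higher, where 24.9% of all genes were called and 11.8% called higher. IL-10-Fc against Ctrl-IgG called 2 higher (C4b and Cfp) and 1 lower (Cd55), where 33.7% of all genes were called, 10.1% higher and 23.6% lower. BF10 against aCSF1R called 3 (Cfp, C3ar1 and C4b), all higher, where 25.0% were called and 11.0% called higher. IL-10-Fc against aCSF1R called 2 higher (Cfp and C3ar1) and 1 lower (Cd55), where 42.2% were called, 11.0% higher and 31.2% lower. So 3 of 9 is near the background share in each of these 4 comparisons, and counts this small say little about the set as a whole. The median difference of the 9 genes was 0.81 in BF10 against Ctrl-IgG, 0.38 in IL-10-Fc against Ctrl-IgG, 0.82 in BF10 against aCSF1R and 0.14 in IL-10-Fc against aCSF1R. The median over all genes was -0.12, -0.39, -0.21 and -0.51 in the same order, and scaling by median-of-ratios size factors moved it to -0.08, -0.00, -0.05 and -0.01. By the values alone, groups did not overlap for 3, 2, 5 and 4 of the 9 genes in these 4 comparisons, against 38.4%, 37.3%, 55.7% and 56.1% of all genes.

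**Figure D2:**
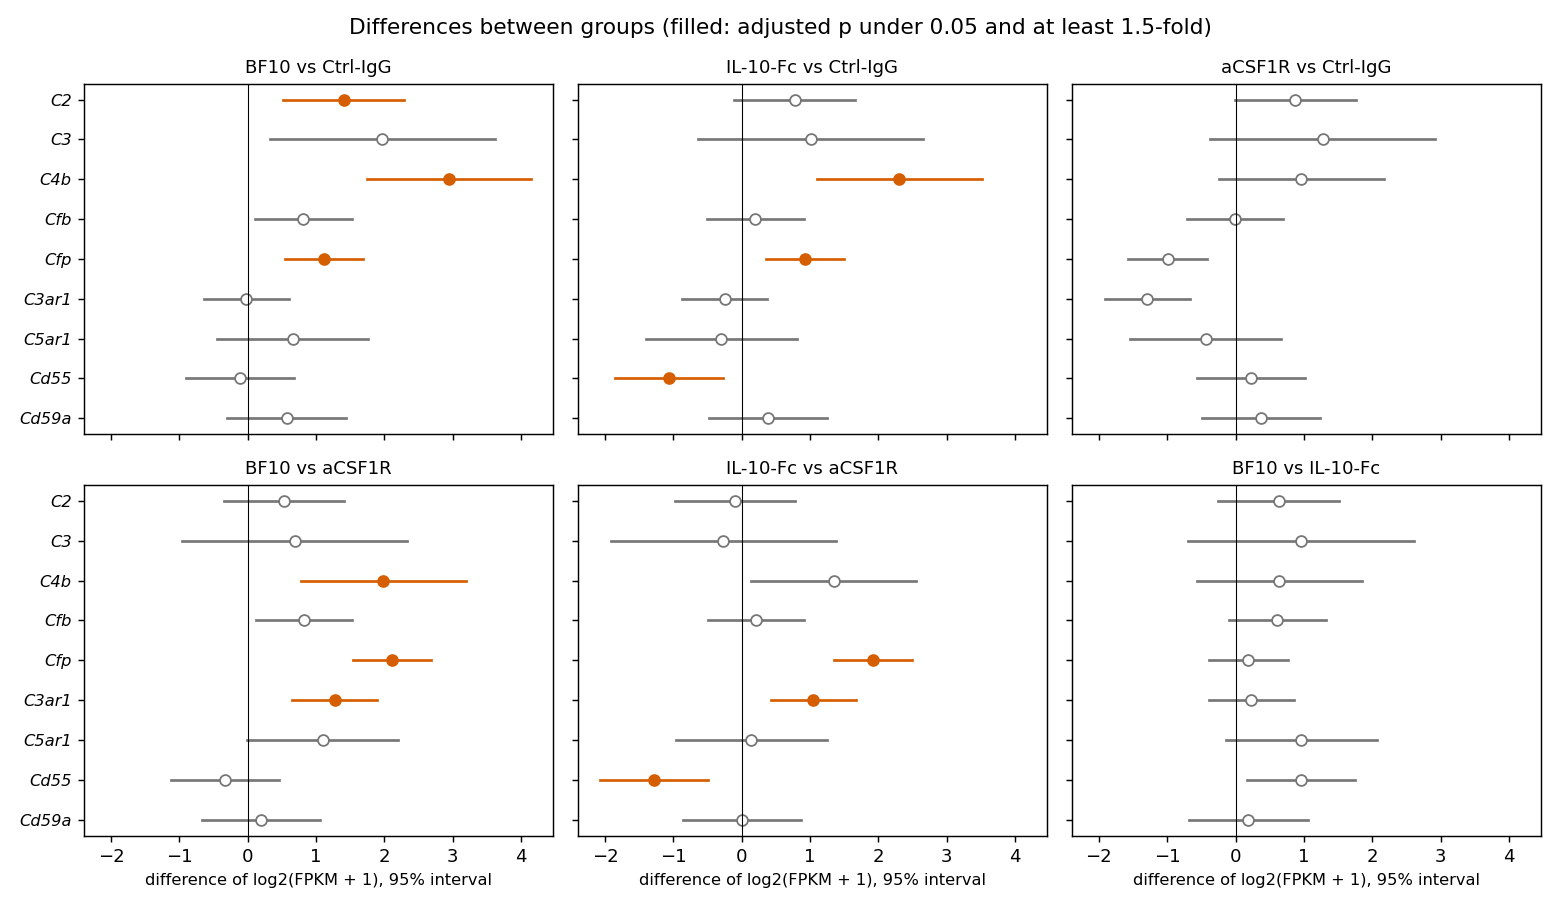
Difference of log2(FPKM + 1) for each gene in the 6 pairwise comparisons (1 panel each), with its 95% interval from limma; filled points passed the adjusted p and the 1.5-fold limit. The 12 filled points all lie in the 4 panels that set IL-10-Fc or BF10 against Ctrl-IgG or aCSF1R.

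C4b, which supplies the C4 of the classical and lectin routes, showed the largest difference of the 9 from Ctrl-IgG. It measured 3.26, 2.45 and 18.11 FPKM in the Ctrl-IgG libraries and 9.97, 13.39 and 12.14 in aCSF1R. It measured 37.22, 21.88 and 37.81 for IL-10-Fc and 35.42, 53.61 and 63.53 for BF10. Every IL-10-Fc and BF10 library lay above every Ctrl-IgG and aCSF1R library, and Ctrl-IgG replicate 3 stood well above the others of its group. C4b was higher in BF10 than in Ctrl-IgG by 2.95 ± 0.55 (log2 difference ± SE, adjusted p = 0.00281), and the call held under every alternative tried. It was higher in IL-10-Fc than in Ctrl-IgG by 2.31 ± 0.55 (adjusted p = 0.00815), which was lost with only the compared groups in the fit (adjusted p = 0.0555). Leaving out the 4 libraries of high mitochondrial share kept only IL-10-Fc replicate 3 of its group. The difference was then 2.10 and not called. Against aCSF1R the BF10 difference was 1.98 ± 0.55 (adjusted p = 0.0217). This call was lost without BF10 replicate 2 (adjusted p = 0.0674), BF10 replicate 3 (0.0688), aCSF1R replicate 1 (0.0734) or aCSF1R replicate 3 (0.0551), and on the TPM scale (0.0577). The IL-10-Fc difference from aCSF1R was 1.34 with an interval of 0.14 to 2.55 (adjusted p = 0.0667) and passed in 5 of 16 alternatives, median-of-ratios scaling among them (1.95, adjusted p = 0.00809).

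C4a did not share this pattern. It measured 0.78 to 2.52 FPKM in Ctrl-IgG and aCSF1R and 0.61 to 3.8 in IL-10-Fc and BF10, and its difference between BF10 and Ctrl-IgG was 0.52 ± 0.35 (adjusted p = 0.324). The ratio of C4b to C4a was 1.93, 3.14 and 7.22 in Ctrl-IgG and 3.96, 5.36 and 5.54 in aCSF1R. It was 30.3, 35.9 and 18.1 for IL-10-Fc and 26.0, 15.9 and 16.7 for BF10. The sides did not overlap in this ratio, which was chosen for display after its values were seen and is given without a test.

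**Figure D3:**
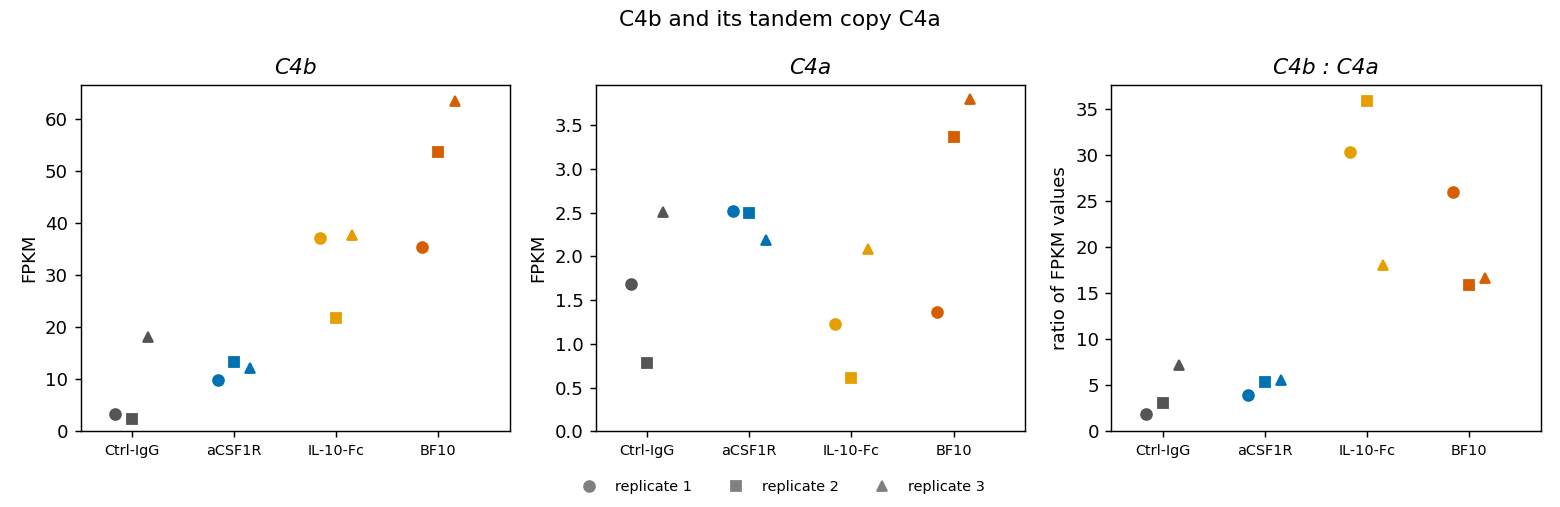
FPKM of C4b (left) and C4a (middle) and the ratio between them (right) in each of the 12 libraries, on linear axes from 0. The ratio lies between 1.93 and 7.22 in Ctrl-IgG and aCSF1R and between 15.9 and 35.9 in IL-10-Fc and BF10.

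C2, the protease that C4b binds to make the classical C3-cleaving enzyme, was lowest in Ctrl-IgG. Its FPKM was 1.94, 1.89 and 4.97 in Ctrl-IgG and 4.48, 7.49 and 5.71 in aCSF1R. It was 4.88, 3.38 and 8.83 for IL-10-Fc and 5.89, 8.8 and 12.86 for BF10. BF10 lay wholly above Ctrl-IgG, and the other group pairs overlapped. C2 was higher in BF10 than in Ctrl-IgG by 1.40 ± 0.40 (adjusted p = 0.0252). The call was lost without BF10 replicate 2 (adjusted p = 0.0717), BF10 replicate 3 (0.0935), Ctrl-IgG replicate 1 (0.0948) or Ctrl-IgG replicate 2 (0.0809), on the TPM scale (0.0699) and with only the compared groups in the fit (0.0608). The IL-10-Fc difference from Ctrl-IgG of 0.77 (interval -0.11 to 1.65, adjusted p = 0.156) passed under median-of-ratios scaling, where it was 1.18 (adjusted p = 0.00851).

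Cfb, the alternative-route counterpart and genomic neighbour of C2, was the most abundant of the 9. Its FPKM was 35.9, 50.22 and 72.3 in Ctrl-IgG and 39.18, 53.96 and 61.11 in aCSF1R. It was 75.91, 46.32 and 56.96 for IL-10-Fc and 125.63, 70.13 and 82.7 for BF10. BF10 replicate 1 was the highest library by a wide margin, and BF10 overlapped Ctrl-IgG but not aCSF1R. The BF10 differences from Ctrl-IgG (0.81 ± 0.32, adjusted p = 0.0883) and from aCSF1R (0.82 ± 0.32, adjusted p = 0.0854) did not pass. Without Ctrl-IgG replicate 3 the former was 1.07 and passed (adjusted p = 0.0437). Gm20547, an annotated readthrough gene over C2 and Cfb, was at most 0.12 FPKM, and Zbtb12, on the strand opposite C2, was 5.79 to 13.85. Of the other class III neighbours, 7 of 8 were tested (Ehmt2, Nelfe, Skiv2l, Dxo, Stk19, C4a and Tnxb). None of them was called higher in any comparison, Stk19 was called lower in IL-10-Fc than in Ctrl-IgG, and Nelfe, Skiv2l and Stk19 were called lower in IL-10-Fc than in aCSF1R. Their median difference in BF10 against Ctrl-IgG was 0.00.

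C3, the component on which all routes converge, had the widest scatter within groups among the abundant members. It measured 9.35, 6.76 and 36.8 FPKM in Ctrl-IgG and 30.43, 42.99 and 30.15 in aCSF1R. It measured 22.77, 13.6 and 70.15 for IL-10-Fc and 20.93, 80.36 and 100.17 for BF10. In Ctrl-IgG, IL-10-Fc and BF10 the highest libraries, Ctrl-IgG replicate 3, IL-10-Fc replicate 3 and BF10 replicates 2 and 3, are those whose titles carry a number from 5 to 7 after the letter C, a code the labels do not explain, and all 4 libraries of high mitochondrial share carry a number from 1 to 4. The aCSF1R libraries did not follow this split. The BF10 difference from Ctrl-IgG was 1.96 ± 0.75 (adjusted p = 0.0791). It was 1.29 within the title numbers 1 to 4 (1 library against 2) and 1.26 within 5 to 7 (2 against 1). It passed in 7 of 16 alternatives, among them the fit with the title number set as a term (1.48, adjusted p = 0.042), that without the 4 libraries of high mitochondrial share (2.20, adjusted p = 0.0164), that without BF10 replicate 1 (2.65, adjusted p = 0.0245) and that without Ctrl-IgG replicate 3 (2.66, adjusted p = 0.0248). The other comparisons of C3 did not pass in the main fit, with differences between -0.27 and 1.28. With the FPKM sum as covariate, C3 was called in IL-10-Fc against Ctrl-IgG (1.93, adjusted p = 0.00279) and in BF10 against aCSF1R (1.01, adjusted p = 0.0458).

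Cfp, the X-linked gene of properdin, separated the groups most cleanly. It measured 20.18, 35.88 and 31.55 FPKM in Ctrl-IgG and 12.87, 14.64 and 13.82 in aCSF1R. It measured 74.97, 51.57 and 42.64 for IL-10-Fc and 68.61, 56.88 and 62.83 for BF10. The 3 aCSF1R libraries were the lowest of the 12, and the 6 of IL-10-Fc and BF10 were the highest. Cfp was higher than in aCSF1R by 2.11 ± 0.26 in BF10 (adjusted p = 0.00029) and by 1.92 ± 0.26 in IL-10-Fc (adjusted p = 0.000324), and higher than in Ctrl-IgG by 1.11 ± 0.26 in BF10 (adjusted p = 0.00948), and these 3 calls held under every alternative tried. The IL-10-Fc difference from Ctrl-IgG, 0.93 ± 0.26 (adjusted p = 0.0188), was lost without Ctrl-IgG replicate 1 (0.69, adjusted p = 0.0831), without IL-10-Fc replicate 1 (0.70, adjusted p = 0.0824) and with only the compared groups in the fit (adjusted p = 0.108). Summed FPKM of 7 macrophage markers was 134 to 152 in aCSF1R, 223 to 378 in Ctrl-IgG and 428 to 604 in IL-10-Fc and BF10, but C1qa, itself a complement gene, made up 36.3% to 74.9% of it. The other 6 markers summed to 68.8 to 97.1 in aCSF1R, 102 to 148 in Ctrl-IgG, 112 to 154 in IL-10-Fc and 130 to 233 in BF10, so that only aCSF1R lay apart from the other groups. Of the 7, C1qa and Mrc1 were called higher than in Ctrl-IgG, both in BF10 and in IL-10-Fc, and 5 and 3 were called higher than in aCSF1R in BF10 and IL-10-Fc. Against Ctrl-IgG the median difference of the 7 was 0.26 in BF10 and 0.04 in IL-10-Fc. In IL-10-Fc, Csf1r (0.79), Fcgr1 (0.04), Cd68 (-0.75), Mertk (-0.93) and Adgre1 (-0.14) were not called. No macrophage marker was at 0 in any library. The part of macrophages in the Cfp values was not tested, and in bulk tissue fewer cells of a type and less RNA per cell cannot be told apart.

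C3ar1, the receptor for C3a, was set apart by aCSF1R alone. It measured 9.71, 13.69 and 9.39 FPKM in Ctrl-IgG and 3.37, 3.28 and 4.98 in aCSF1R. It measured 12.99, 8.9 and 6.08 for IL-10-Fc and 11.8, 9.34 and 10.85 for BF10. No aCSF1R library reached the lowest library of any other group, and the other 3 groups overlapped. C3ar1 was higher in BF10 than in aCSF1R by 1.27 ± 0.28 (adjusted p = 0.00749), and this call held under every alternative. It was higher in IL-10-Fc by 1.04 ± 0.28 (adjusted p = 0.0139). That call was lost without aCSF1R replicate 1 (0.97, adjusted p = 0.0553), aCSF1R replicate 2 (0.96, adjusted p = 0.0566) or IL-10-Fc replicate 1 (0.80, adjusted p = 0.0618). Leaving out the 4 libraries of high mitochondrial share kept only IL-10-Fc replicate 3 of its group. The difference was then 0.56 and not called. Between BF10 and Ctrl-IgG C3ar1 differed by -0.02 (adjusted p = 0.972). The macrophage marker sums without C1qa, given for Cfp, were likewise lowest in aCSF1R, at most 97.1 against at least 102 elsewhere. Not every marker followed. Fcgr1 (-1.38), Adgre1 (-1.02), Mrc1 (-0.83) and Csf1r (-0.53) were lower in aCSF1R than in Ctrl-IgG. Cd68 (-0.16) and Mertk (0.15) differed little, and none was called. In IL-10-Fc against aCSF1R, Cd68 (-0.59) and Mertk (-1.08) were lower and not called. Fcgr1 (1.41) and Mrc1 (2.31) were called higher there, and Adgre1 (0.89) and Csf1r (1.32) were higher and not called. Of the markers, Adgre1 (0.26), Fcgr1 (0.04), Cd68 (0.10) and Mertk (-0.09) were not called between BF10 and Ctrl-IgG, whereas C1qa (1.13) and Mrc1 (1.55) were. Their part in the C3ar1 values was not tested either.

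C5ar1, the receptor for C5a that guides neutrophils and macrophages, measured 6.67, 3.5 and 9.56 FPKM in Ctrl-IgG and 3.35, 4.81 and 4.8 in aCSF1R. It measured 3.43, 2.55 and 11.51 for IL-10-Fc and 5.74, 13.61 and 13.65 for BF10. Like C3, it was highest in the libraries with title numbers 5 to 7 in every group but aCSF1R. No comparison passed, and the nearest was BF10 against aCSF1R, whose libraries did not overlap (1.10, interval -0.00 to 2.20, adjusted p = 0.135). That difference was 1.47 and passed without the 4 libraries of high mitochondrial share (adjusted p = 0.00131), and it passed under median-of-ratios scaling (1.24, adjusted p = 0.0225). Without the same 4 libraries C5ar1 was also called in BF10 against Ctrl-IgG (0.70, adjusted p = 0.0303). Its difference in IL-10-Fc against aCSF1R was then 1.25, but IL-10-Fc replicate 3 alone was left in its group. The IL-10-Fc and BF10 libraries left all carry title numbers from 5 to 7, those in which C5ar1 was highest. Summed neutrophil markers, 30.4 to 302 FPKM in Ctrl-IgG, 171 to 331 in aCSF1R, 975 to 4410 in IL-10-Fc and 487 to 1570 in BF10, consisted of S100a8 and S100a9 to 84.6% or more. The receptor gene Csf3r of the same list was 3.36, 2.06 and 6.92 in Ctrl-IgG and 4.98, 6.83 and 6.06 in aCSF1R. It was 4.54, 1.66 and 12.87 for IL-10-Fc and 3.49, 9.99 and 11.57 for BF10, with the same libraries highest as for C5ar1 in Ctrl-IgG, IL-10-Fc and BF10. Cxcr2 was 0.16, 0.12 and 1.07 in Ctrl-IgG and 0.79, 1.34 and 1.09 in aCSF1R. It was 1.1, 0.56 and 2.46 for IL-10-Fc and 0.8, 2.34 and 2.6 for BF10. Neither Csf3r nor Cxcr2 was called in any comparison. Mmp8, S100a8 and S100a9 of the list were highest in replicate 1 of both IL-10-Fc and BF10. Mmp8 was 12.5, 7.89 and 4.65 for IL-10-Fc and 8.23, 2.89 and 4.22 for BF10. It was called higher in IL-10-Fc than in Ctrl-IgG, and in both groups than in aCSF1R. Ly6g was 6.55, 1.51 and 0.91 for IL-10-Fc and 0.7, 0.99 and 0.76 for BF10. The part of neutrophils in the C5ar1 values was not tested.

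Cd55, decay-accelerating factor, takes apart C3-cleaving enzymes on the cell surface, and it was the sole member called lower anywhere. It measured 9.56, 9.35 and 3.85 FPKM in Ctrl-IgG and 7.44, 8.88 and 9.05 in aCSF1R. It measured 4.76, 2.4 and 1.95 for IL-10-Fc and 4.83, 6.64 and 8.37 for BF10. IL-10-Fc lay wholly below aCSF1R and BF10 but overlapped Ctrl-IgG, whose replicate 3 was low. Cd55 was lower in IL-10-Fc than in aCSF1R, by a difference of -1.29 ± 0.36 (adjusted p = 0.0159), and than in Ctrl-IgG, by -1.07 ± 0.36 (adjusted p = 0.0405). Both calls were lost when libraries were rescaled by median-of-ratios size factors, with -0.75 (adjusted p = 0.152) and -0.67 (adjusted p = 0.226), or by quantiles (adjusted p = 0.223 and 0.293). The first was lost without aCSF1R replicate 2 (adjusted p = 0.0518) or IL-10-Fc replicate 2 (0.0572). The second was lost without Ctrl-IgG replicate 1 (adjusted p = 0.149), Ctrl-IgG replicate 2 (0.1), IL-10-Fc replicate 2 (0.119) or IL-10-Fc replicate 3 (0.0781), without the filter on low values (0.073) and with only the compared groups in the fit (0.138). Cd55b, its neighbour copy, was listed at 0 in 11 of 12 libraries and at 0.04 in aCSF1R replicate 1.

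Cd59a, which blocks the membrane attack complex, was the least expressed member. It measured 0.57, 0.16 and 2.19 FPKM in Ctrl-IgG and 1.71, 1.51 and 0.86 in aCSF1R. It measured 1.44, 0.89 and 1.79 for IL-10-Fc and 0.68, 2.67 and 2.08 for BF10. All groups overlapped, and no comparison passed under any alternative. The largest difference was 0.57 in BF10 against Ctrl-IgG, with an interval of -0.30 to 1.43 (adjusted p = 0.34). Its copy Cd59b was 0 to 0.21 in Ctrl-IgG and aCSF1R and 0.33 to 0.96 in IL-10-Fc and BF10, under the 1 FPKM limit in every library and so not tested.

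In 2 comparisons both groups lie on one side of the split in Xist, H2-Ea and keratin genes. Adding CSF1 receptor blockade to the control (aCSF1R against Ctrl-IgG) called none of the 9 by limma, where 0.0% of all genes (0 of 15813) were called and 437 had an unadjusted p under 0.05, 2 of the members among them. Those were C3ar1 with -1.29 (interval -1.91 to -0.67, adjusted p = 0.761) and Cfp with -0.99 (interval -1.57 to -0.42, adjusted p = 0.958), and their libraries did not overlap, as for 14.9% of all genes. The proteins given to BF10 and IL-10-Fc mice differ in build and in dose by weight as well as in binding to the CSF1 receptor. BF10 against IL-10-Fc called none, where 0.0126% of all genes (2 of 15813) were called and 828 had an unadjusted p under 0.05. All 9 differences lay above 0 in that comparison, as did 75.2% of all genes, with a median of 0.63 against 0.34 over all genes. Scaling by median-of-ratios size factors moved the median over all genes to 0.03. The signs were not stable for every member, since some alternatives put C3 (lowest -0.10), C3ar1 (-0.21), Cd59a (-0.23) and Cfp (-0.25) below 0. Cd55 was the sole member whose libraries did not overlap (0.95, interval 0.16 to 1.74, adjusted p = 0.478), as for 5.18% of all genes. The intervals do not show that the groups were alike, since that for C3 ran from -0.69 to 2.60. The difference between BF10 and the added effects of its parts, that is the change from IL-10-Fc to BF10 less the change from Ctrl-IgG to aCSF1R, called none of the 9 and 0.00632% of all genes (1 of 15813), with 412 at an unadjusted p under 0.05. It was 1.52 ± 0.40 for C3ar1 and 1.18 ± 0.37 for Cfp (adjusted p = 1.0 for both). This contrast shares its Ctrl-IgG and aCSF1R libraries with the comparisons above.

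Of 41 other complement genes by role, 22 passed the filter on low values. In BF10 against Ctrl-IgG, 8 of the 22 were called higher and none lower, where 11.8% and 13.2% of all genes were, with a median difference of 0.95. In IL-10-Fc against Ctrl-IgG 10 were called higher and 1 lower, where 10.1% and 23.6% of all genes were, with a median of 0.48. Against aCSF1R, 9 were called higher and 1 lower in BF10, where 11.0% and 14.0% of all genes were. In IL-10-Fc 9 were called higher and 2 lower, where 11.0% and 31.2% of all genes were. None was called in aCSF1R against Ctrl-IgG or in BF10 against IL-10-Fc. Among the genes that start the cascade, 5 of 9 passed as higher in BF10 (against Ctrl-IgG), with the largest differences for the collectin Colec12 (3.03 ± 0.44, adjusted p = 0.000717) and the C1s-like protease C1s2 (2.12 ± 0.19, adjusted p = 4.09e-05). C1s2 was 0.04 to 0.22 FPKM in Ctrl-IgG and aCSF1R and 3.24 to 6.08 in IL-10-Fc and BF10. Cfd, the factor D that cleaves factor B and a product of adipocytes, did not exceed 1.63 FPKM in Ctrl-IgG or aCSF1R. It was 115.64, 2.72 and 5.14 for IL-10-Fc and 102.52, 60.2 and 80.84 for BF10, a difference of 5.83 ± 1.00 between BF10 and Ctrl-IgG (adjusted p = 0.00186). Summed adipocyte markers were highest in the same libraries, 54.5 FPKM in IL-10-Fc replicate 1 and 37.6 to 51.7 in BF10 against at most 4.73 elsewhere, and their part in the Cfd values was not tested. Hc, which encodes C5, was 1.07 to 3.75 across all libraries and was not called. Of 3 soluble regulators tested, Serping1, the C1 inhibitor, rose from Ctrl-IgG to BF10 (2.29 ± 0.64, adjusted p = 0.0224). Of 2 terminal genes tested, C6 was called higher (0.90 ± 0.23, adjusted p = 0.0167), at no more than 1.72 FPKM in any library. The other, C8g, differed by -0.64 and was not called. C8g was called lower in IL-10-Fc than in Ctrl-IgG (-1.15), and than in aCSF1R both in BF10 (-1.47) and in IL-10-Fc (-1.97). Cr1l, the rodent membrane inhibitor also called Crry, was 30.6 to 41.96 in all libraries and did not pass in any comparison, and it lay above Cd55 and Cd59a in every library. Of 4 other receptors tested, none was called in BF10 against Ctrl-IgG, and C5ar2, the second C5a receptor, stayed at or under 0.65 FPKM.

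**Figure D4:**
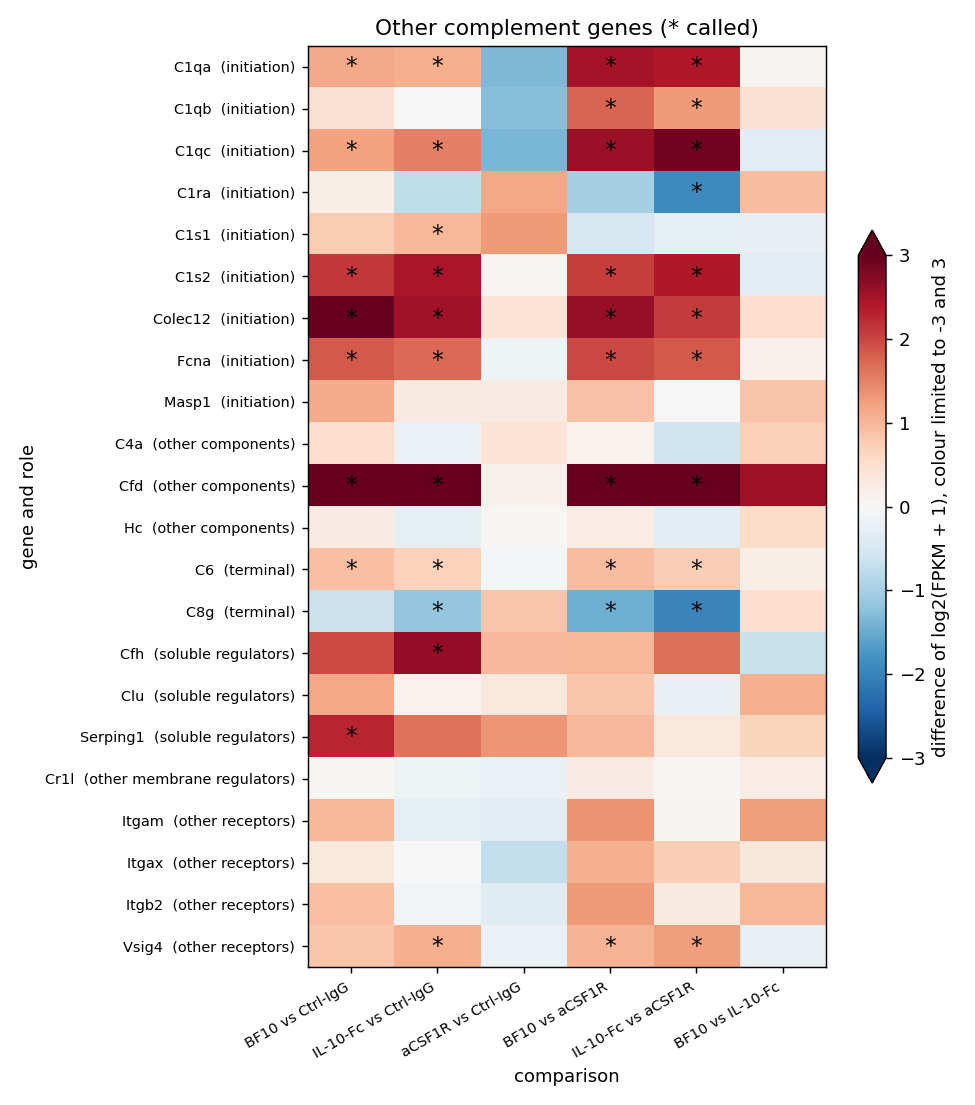
Difference of log2(FPKM + 1) for the 22 other complement genes tested (rows, with their role) in the 6 pairwise comparisons (columns), coloured from blue (lower in the first group) to red (higher), with * where the gene was called. Calls lie in the 4 columns that set IL-10-Fc or BF10 against Ctrl-IgG or aCSF1R.

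Markers of some other cell types differed along the same split of the libraries, and those of others did not. Summed fibroblast markers were 86.6, 111 and 386 FPKM in the Ctrl-IgG libraries, 290 to 352 in aCSF1R, 607 to 1410 in IL-10-Fc and 752 to 1050 in BF10, and 3 of the 5 passed as higher in BF10 against Ctrl-IgG (Col1a1, Col1a2 and Lum). Pdgfra of the same list differed by -0.49 in BF10 and -0.75 in IL-10-Fc against Ctrl-IgG, neither called, and was called lower in IL-10-Fc than in aCSF1R (-1.16, adjusted p = 0.0198). Ctrl-IgG replicate 3, which had the highest C3, C4b, C2 and Cd59a of its group, also had its highest fibroblast sum. It also had 1200 FPKM of stratified keratinocyte markers against 2.26 and 4.82 in the others, and 688 of skeletal muscle markers against 26.9 and 13.5. The keratinocyte sums were 2.2 to 850 in aCSF1R and 17.9 to 36.5 in the IL-10-Fc and BF10 tumours. Simple epithelial markers were at most 3.78 in Ctrl-IgG and aCSF1R and 505 to 1310 in the other 6 libraries. Hepatocyte marker sums were low but followed the split, at most 0.16 in Ctrl-IgG and aCSF1R and 0.92 to 3.72 in the other libraries. Serpina1a of this list was at most 0.01 in Ctrl-IgG and aCSF1R and 0.9 to 3.56 in IL-10-Fc and BF10. Its limma difference for BF10 against Ctrl-IgG was 1.92 (adjusted p = 0.000564). Ttr was at 0 in every library, and Apoa1 was at 0 in every IL-10-Fc and BF10 library and at most 0.13 elsewhere. The part of these cell types in the complement values was not tested.

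**Figure D5:**
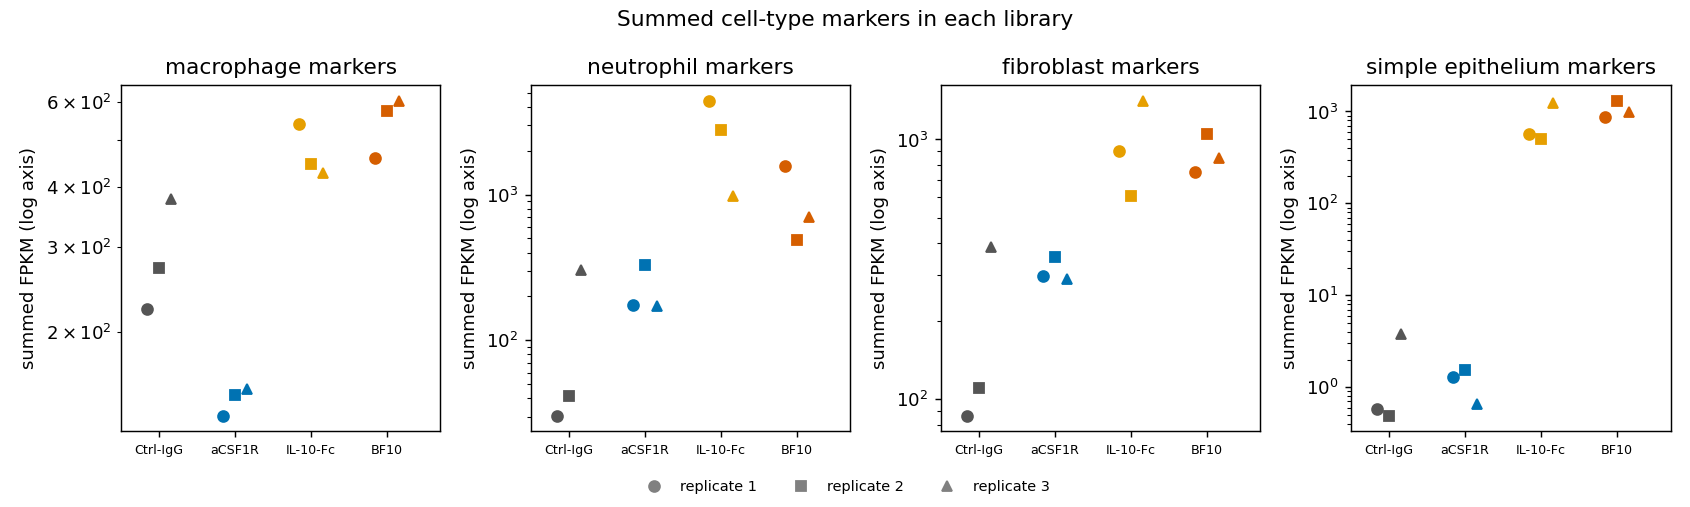
Summed FPKM (log axis) of macrophage, neutrophil, fibroblast and simple epithelial markers in each of the 12 libraries by group. Macrophage sums are lowest in aCSF1R (134 to 152), and simple epithelial sums split the libraries into 6 at or under 3.78 and 6 at or above 505.

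Within groups the members fell into sets with like scatter. Taking each library's deviation from its own group mean on log2(FPKM + 1), over 12 libraries, C2 and C3 had a Pearson r of 0.952, C3 and C5ar1 0.923 and C3 and Cd59a 0.88, while C3ar1 and C5ar1 had -0.669. Among 10274 other genes of at least 5 FPKM on average, those most like C3 were S1pr1 (0.993), Cdh5 (0.982) and C1qtnf5 (0.979), and those most like C2 were Timp3 (0.949), Cdh5 (0.947) and Plpp3 (0.947). C4b was nearest to Esam (0.948), Arrdc4 (0.938) and Prg4 (0.937). Cfp was nearest to Abca1 (0.968), the macrophage marker Adgre1 (0.947) and Cxcl16 (0.942), and C3ar1 to Sdf4 (0.964), Serinc3 (0.95) and Cd48 (0.942). Cfb was nearest to Cd14 (0.91), Gm8797 (0.887) and Pros1 (0.882), and C5ar1 to H2-Q5 (0.993), Diaph1 (0.992) and H2-Q7 (0.988). Cd55 was nearest to Gzme (0.925), Ctla4 (0.919) and 1810014B01Rik (0.846), and Cd59a to Coq8a (0.941), Apoe (0.929) and Mir678 (0.917). These are the highest of many values over few points that share library, scaling and mitochondrial share, and they are a description only.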

How the data were processed

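Total RNA of orthotopic tumour tissue had been made into 12 stranded, poly(A)-selected libraries, 3 per treatment group, and sequenced on an Illumina NextSeq with reads of 75 bases. The submitters' processing notes name STAR 2.7.5a, RSEM 1.3.3 and the mm10 (GRCm38) build, and the authors deposited FPKM values per gene for every library in 1 table, which was used here. Tables of the authors' own group comparisons, holding fold changes and p-values, were not used. FPKM values are scaled, so a count model was not used, and the depth behind each value is unknown.

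Genes that reached 1 FPKM in 3 or more libraries (15813 of 55401, all 9 complement genes included) were tested on log2(FPKM + 1) with limma 3.58.1 in R 4.3.3, with all 12 libraries in 1 fit, a mean-variance trend and two-sided tests adjusted by the Benjamini-Hochberg method over all genes tested. Calls needed an adjusted p under 0.05 together with a difference of 1.5-fold or more. The 6 pairwise comparisons and the difference between BF10 and the added effects of its parts were fitted. The script was tested on simulated data. No 2 libraries held identical values. Groups came from the labels, and replicate numbers follow sample order and pair nothing. Gene positions are from GENCODE M21, in which 99.5% of the gene identifiers were found, promoter windows from RefSeq, with Python 3.11.15 for the tables. The 9 genes, the complement lists and the marker lists were chosen with earlier results of these data known.

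The genes named were the 9 members, for each role of the other complement genes up to 2 called genes with the largest difference in BF10 against Ctrl-IgG, a fixed set of paralogs and partners (C4a, Cd55b, Cd59b, Hc, Cfd, Cr1l, C5ar2), the class III neighbours, the 3 genes most like each member, and the genes that describe the libraries. C8g was added as the other terminal gene tested. Alternatives were a pseudocount of 0.1, a mean of at least 5 FPKM, no filter, median-of-ratios scaling, TPM, quantile normalization, the log2 FPKM sum or the title number set as a covariate, the compared groups alone, leaving out each library, and, chosen after seeing the data, leaving out the 4 libraries of high mitochondrial share (over 5%).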

Additional observations from a re-analysis of the deposited data

How the results depend on the processing

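Of 12 differences called among the 9 genes and 7 comparisons, 5 kept their call under every alternative run, namely Cfp in BF10 against Ctrl-IgG and in both comparisons with aCSF1R, C4b in BF10 against Ctrl-IgG and C3ar1 in BF10 against aCSF1R. Over 1046 recomputed values, a call was lost 32 times and gained 30 times, and no called difference changed sign. The sign differed 63 times, each time where neither value was called. Each of the 12 called differences had 1 sign in both title number sets. These sets hold 1 or 2 libraries of a group and the differences were called on the same libraries, so this is a description only. No member was called in aCSF1R against Ctrl-IgG, in BF10 against IL-10-Fc or in the contrast of BF10 with its added parts under any alternative. The count of 3 in BF10 against Ctrl-IgG became 5 with quantile normalization, with the FPKM sum as covariate and without the 4 libraries of high mitochondrial share, and 2 to 5 on leaving out 1 library (5 without Ctrl-IgG replicate 3). Of all 15813 genes, 3941 were called in that comparison, 4646 with quantile normalization and 6901 with the FPKM sum as covariate. Without Ctrl-IgG replicate 3 calls numbered 3494 of 15480. Calls over all genes also rose without the 4 libraries of high mitochondrial share. In IL-10-Fc against Ctrl-IgG the member count of 3 became 5 with the FPKM sum as covariate (7144 of all genes, from 5326). It became 0 with the compared groups alone (2734), and 1 to 3 on leaving out 1 library (1 without Ctrl-IgG replicate 1, 3530 of 15712). In BF10 against aCSF1R it became 5 with quantile normalization (4684 of all genes, from 3955) and 7 with the FPKM sum as covariate (6740). In IL-10-Fc against aCSF1R it became 5 with that covariate (6735 of all genes, from 6669) and 1 without aCSF1R replicate 2 (4450 of 15463). As calls over all genes moved too, the member counts are not read as a result about these 9 genes. The cause was not tested. The mean filter of 5 FPKM removed Cd59a. No paired analysis was possible because the labels pair no libraries across groups and the replicate numbers follow sample order.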

Other observations

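The ratio of Cfp to C3ar1, genes that both had their lowest levels in aCSF1R, was 2.08, 2.62 and 3.36 in Ctrl-IgG, 3.82, 4.46 and 2.78 in aCSF1R, 5.77, 5.79 and 7.01 for IL-10-Fc and 5.81, 6.09 and 5.79 for BF10. The 6 IL-10-Fc and BF10 libraries lay above the other 6, and the ratio was chosen after its values were seen.

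Summed T cell markers were 8.75 to 9.16 FPKM in Ctrl-IgG, 8.17 to 12.1 in aCSF1R, 6.89 to 12.1 in IL-10-Fc and 13.6 to 26.9 in BF10. Mast cell markers reached 65.7 in IL-10-Fc replicate 1 and were at most 19.7 elsewhere. Summed endothelial markers were 19.8, 15.3 and 35.9 in Ctrl-IgG and 29.8, 42.8 and 32.0 in aCSF1R. They were 15.0, 12.7 and 30.9 for IL-10-Fc and 22.5, 48.8 and 52.3 for BF10. In Ctrl-IgG, IL-10-Fc and BF10 the highest libraries were those highest for C3. The part of endothelial cells in the C3 values was not tested.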
